A study of Homo sapiens with 7 samples.

Results

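The genes described here are 5 long non-coding RNA genes that carry microRNAs in their transcripts: MIR155HG, MIR17HG, MIR181A1HG, MIR22HG and MIRLET7BHG. They were chosen by name from the 38151 protein-coding and lncRNA genes of RefSeq GRCh38.p14 on chromosomes 1 to 22 and X, as host genes of microRNAs studied in lymphocytes. The rule uses no peak value, but earlier results of these data were known when the names were listed. Chromatin immunoprecipitation followed by sequencing (ChIP-seq) had been carried out in OCI-Ly7, an established line of human diffuse large B-cell lymphoma, kept in suspension culture and given no treatment that the labels name. Antibodies were against the octamer factors OCT1 and OCT2, their partner OCA-B, and EP300, CREBBP and MED1, with 1 library each, and 1 input library without antibody served as control for all 6. All values come from 1 line and from single libraries, so none has a replicate check and no test between factors was made.

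A host gene is transcribed as a long primary transcript. A hairpin is cut out of it in the nucleus by DROSHA with DGCR8, exported by XPO5 and trimmed by DICER1 to a mature microRNA, whose seed (bases 2 to 8) selects target messages. MIR155HG, first known as BIC, carries miR-155, which is induced on lymphocyte activation and shapes the germinal centre response. MIR17HG carries the miR-17-92 cluster, an oncogenic cluster in B cell lymphoma that MYC induces. MIR181A1HG carries miR-181a and miR-181b, which tune antigen receptor signalling, MIR22HG carries miR-22, and MIRLET7BHG carries let-7a and let-7b, of a family that restrains growth genes. On the factor side, OCT1 (POU2F1) and OCT2 (POU2F2) bind the octamer sequence ATGCAAAT, OCA-B (POU2AF1) is their lymphoid coactivator, EP300 and CREBBP are histone acetyltransferases found at enhancers and promoters, and MED1 belongs to Mediator.

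The main mature microRNA of 12 hairpins is shown because the genes are named for these products. The hairpins MIR3619 and MIR4763, also in MIRLET7BHG, are named only. The sequences are RefSeq's (GRCh38.p14), 5′ to 3′, with the seed in capitals, and all 12 were found in the RefSeq table.
hsa-miR-155-5p: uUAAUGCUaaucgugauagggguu
hsa-miR-17-5p: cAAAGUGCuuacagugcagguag
hsa-miR-20a-5p: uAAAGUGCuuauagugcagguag
hsa-miR-18a-5p: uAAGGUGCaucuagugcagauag
hsa-miR-19a-3p: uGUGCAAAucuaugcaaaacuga
hsa-miR-19b-3p: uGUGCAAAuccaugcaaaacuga
hsa-miR-92a-3p: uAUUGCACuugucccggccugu
hsa-miR-181a-5p: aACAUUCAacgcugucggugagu
hsa-miR-181b-5p: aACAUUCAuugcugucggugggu
hsa-miR-22-3p: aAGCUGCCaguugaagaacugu
hsa-let-7a-5p: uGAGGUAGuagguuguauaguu
hsa-let-7b-5p: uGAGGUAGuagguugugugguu
They fall into 8 seeds. miR-17 and miR-20a share a seed, as do miR-19a and miR-19b, miR-181a and miR-181b, and let-7a and let-7b.

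Tags kept after filtering numbered 12357450 for CREBBP, the shallowest library, 27885791 for EP300, the deepest, and 37517450 for the input. The lists held 23571 (OCT1) to 82569 (EP300) peaks on the chromosomes used. A longer list has more chances to meet any gene, so counts do not rank the factors. The cells' labelled type was checked with OCT2 peaks that overlapped OCA-B inside or within 50 kb of marker genes. All 8 B cell markers had such peaks, with a median of 18 per gene. So had 8 of 8 T cell markers (median 5.5), 7 of 8 myeloid (2.5) and 6 of 8 liver markers (1.5).

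A peak was given to a host gene when its summit lay inside the gene or within 50 kb of either end. It was called a promoter peak within 1 kb of the gene start and distal otherwise. Together the 6 lists held 175 peaks there, of which 22 were promoter and 153 distal. Of the distal peaks, 46 lay inside the host gene, 37 within 1 kb of an end of another gene, and 70 elsewhere. MIR17HG had the most peaks (71), followed by MIR181A1HG (34), MIRLET7BHG (32), MIR22HG (23) and MIR155HG (15).

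The promoters split into occupied and empty ones. MIR17HG and MIR22HG had a promoter peak in all 6 lists, MIR181A1HG in 5 (all but OCT1), and MIR155HG and MIRLET7BHG in none. The last holds for the RefSeq gene of that symbol. RefSeq also gives PRR34-AS1 as its synonym, and that gene's start had OCT1, OCT2 and OCA-B summits. OCA-B was thus at 3 of 5 host promoters, against 17.9% of the 11383 lncRNA genes with a listed start. OCT2 was at 3 of 5 (16.8% of lncRNA genes), OCT1 at 2 of 5 (15%), MED1 at 3 of 5 (13%), CREBBP at 3 of 5 (12%) and EP300 at 3 of 5 (18.8%). All 6 lists met at 2 of the 5 promoters, against 7.1% of lncRNA genes, and no list at 2 of the 5, against 75.7% of lncRNA genes. At protein-coding genes the share with a promoter peak ran from 26.9% (CREBBP) to 43.6% (OCA-B).

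**Figure D1:**
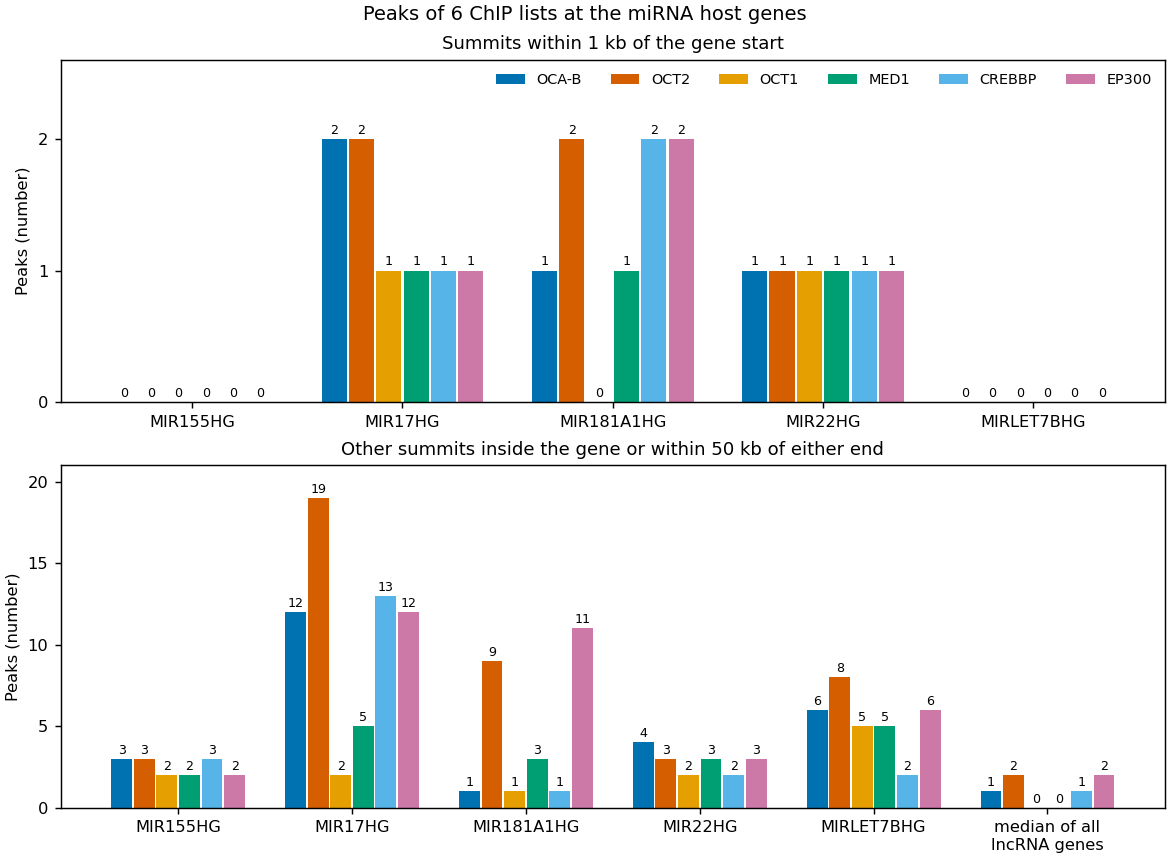
Number of peaks of each ChIP list at the 5 host genes (bars, 1 library a list), within 1 kb of the gene start above and at all other places of the window below, with the median of all 11383 lncRNA genes at the right. MIR155HG and MIRLET7BHG have 0 promoter peaks in every list, and MIR17HG has the highest distal counts for OCT2 (19), CREBBP (13), OCA-B (12) and EP300 (12).

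Every host gene had at least 1 distal peak of every list, though both distal OCT1 peaks of MIR22HG and both distal CREBBP peaks of MIRLET7BHG lay at an end of another gene. The share of lncRNA genes with 1 was 46.6% for OCT1, 68.3% for OCT2, 59.3% for OCA-B, 65.4% for EP300, 52.6% for CREBBP and 47.7% for MED1. The median host gene had 4 distal OCA-B peaks, against 1 at the median lncRNA gene. The median host gene had 8 OCT2, 2 OCT1, 3 MED1, 2 CREBBP and 6 EP300 peaks, against 2, 0, 0, 1 and 2 at the median lncRNA gene. Windows differed in length, from 104.7 kb at MIR22HG to 229.4 kb at MIR181A1HG. Per 100 kb, distal peaks of the 6 lists together numbered 58.9 at MIR17HG, 25.01 at MIRLET7BHG, 16.2 at MIR22HG, 13.3 at MIR155HG and 11.3 at MIR181A1HG. The median over lncRNA genes was 5.20. Over the 64 other genes named MIR...HG with a listed start it was 11.9. MIR181A1HG lay below that second median and the others above it. A density as high was met by 5.91% of lncRNA genes for MIR17HG, 19.5% for MIRLET7BHG, 29.0% for MIR22HG, 33.3% for MIR155HG and 36.1% for MIR181A1HG.

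**Figure D2:**
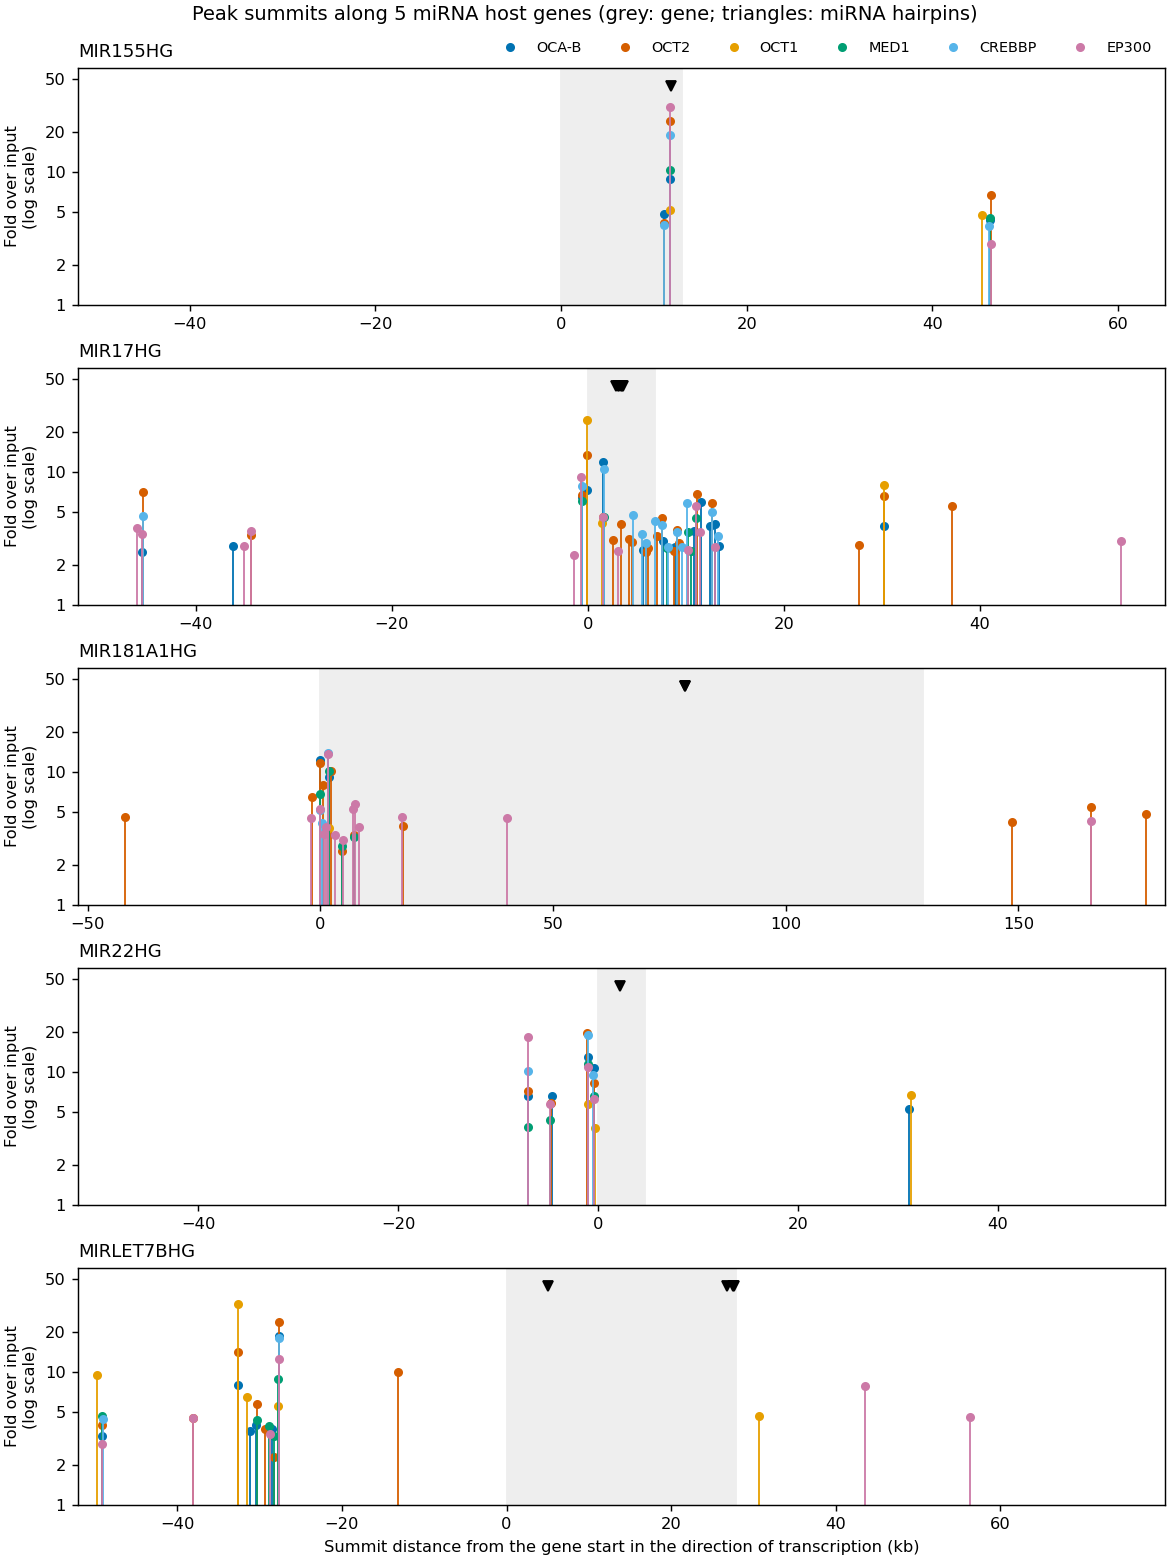
Summits of the 6 lists along each host gene (dots and lines), placed by distance from the gene start in kb on the x axis and by the authors' fold enrichment over input on a log axis. Grey marks the gene and triangles the miRNA hairpins: 9 of the 15 summits of MIR155HG lie in the region of its hairpin, 23 of the 71 of MIR17HG lie in 1 region beyond the gene's end, and the body of MIRLET7BHG holds none.

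MIR17HG lies on the plus strand at chr13:91347687-91354577, and its 6 hairpins begin 2918 to 3627 bp from the start. Its promoter peaks had summits at 2 places, and only the octamer factors and OCA-B had one at the place near the start. OCT1, OCT2 and OCA-B each had a summit 41 or 42 bp upstream of the start. The folds over input were 24.6 for OCT1, 13.3 for OCT2 and 7.30 for OCA-B. Folds and pileups are the authors' values for each peak and rank peaks within a list, not factors against each other. The OCT1 peak there stood at percentile 98.1 of its list by fold and had a pileup, the height of stacked fragments at the summit, of 196. MED1, CREBBP and EP300 had no summit at that place. Theirs lay 623, 624 and 644 bp upstream, with folds of 6.02 for MED1, 7.74 for CREBBP and 9.16 for EP300. A second OCT2 and a second OCA-B summit lay with these, 615 and 592 bp upstream, with folds of 6.65 and 6.41. By pileup the near summits were not the higher ones for these factors. OCT2 had 91 fragments near the start and 92 upstream, and OCA-B 46 and 77, while the local input background described below was 4.97 near the start and 10.9 (OCT2) and 10.2 (OCA-B) upstream. The OCT1 peak reached into that span without a separate summit.

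The RefSeq window from 250 bp before to 50 bp after the start of MIR17HG (chr13:91347437-91347736, plus strand, GRCh38.p14) is shown because the octamer factor summits fall in it. The capitals mark ATGCTAAT, which differs from the octamer in a single letter, the fifth.
MIR17HG promoter: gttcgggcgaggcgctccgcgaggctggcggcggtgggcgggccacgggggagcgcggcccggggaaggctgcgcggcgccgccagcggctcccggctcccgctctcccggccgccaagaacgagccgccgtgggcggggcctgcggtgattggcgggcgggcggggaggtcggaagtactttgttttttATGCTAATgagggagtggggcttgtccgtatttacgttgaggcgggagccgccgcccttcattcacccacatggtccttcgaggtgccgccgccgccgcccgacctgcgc
The match runs from 60 to 53 bp before the start (chr13:91347627-91347634). Its middle lay 15.5 bp from the OCT1 and OCT2 summits and 14.5 bp from the OCA-B summit, against 566.5 to 587.5 bp from the nearest MED1, CREBBP and EP300 summits. ATGCTAAT was searched on both strands and was present in 0.652% of 34961 promoter windows of 300 bp, and ATGCAAAT in 1.77%. Neither was present in the windows of the other 4 host genes, which says only that these letters are not in those 300 bases. The form ATGCTAAT was added to the search after the sequence had been seen.

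Inside MIR17HG a second region in all 6 lists lay 1.5 to 1.6 kb downstream of the start (chr13:91349040-91350068). The OCA-B fold there was 11.7 and that of CREBBP 10.5, both above their own folds at the promoter. OCT1 (4.11), OCT2 (4.56), MED1 (4.57) and EP300 (4.55) had lower folds there than at the promoter. Over the hairpins themselves, 1 OCT2 peak (fold 4.02, chr13:91350793-91351310) overlapped miR-18a, miR-19a, miR-20a and miR-19b-1, and 1 EP300 peak (fold 2.54) overlapped miR-17, miR-18a and miR-19a. miR-92a-1 had none. Beyond the gene's end, 23 peaks of 5 lists, without OCT1, joined into a region of 5137 bp (chr13:91356169-91361305), with highest folds of 4.45 (MED1), 5.48 (EP300), 5.79 (CREBBP), 5.94 (OCA-B) and 6.80 (OCT2). A separate site 30.2 kb downstream of the start held OCT1 (7.88), OCT2 (6.53) and OCA-B (3.88) without any of the other 3.

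**Figure D3:**
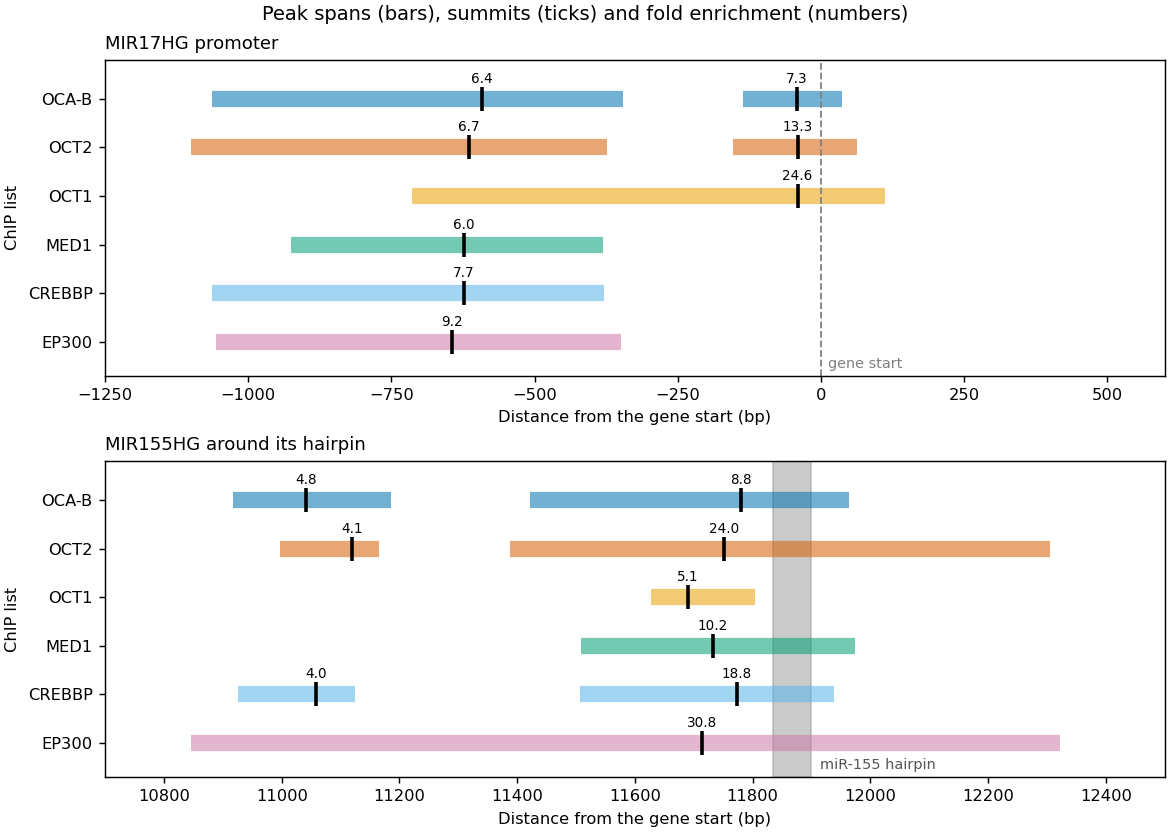
Peak spans (bars), summits (ticks) and folds over input (numbers) of the 6 lists, by distance from the gene start in bp, at the MIR17HG promoter above and around the miR-155 hairpin below. OCT1, OCT2 and OCA-B have a summit 41 or 42 bp upstream of the MIR17HG start and second OCT2 and OCA-B summits lie 615 and 592 bp upstream beside those of MED1, CREBBP and EP300 (623 to 644 bp), and the strongest summits of MIR155HG lie just upstream of the hairpin (grey).

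The background that the peaks were called against was high at every MIR17HG peak. A fold is the pileup over a local background taken from the input, and that background was recovered from the deposited pileup and fold. In multiples of each library's genome average, its median at MIR17HG peaks was 4.97 for OCT1, 5.87 for OCT2, 6.32 for OCA-B, 6.33 for EP300, 6.61 for CREBBP and 7.66 for MED1. Whole lists had medians of 2.24 (EP300) to 2.63 (CREBBP). The lowest value at any MIR17HG peak was 3.74, at an OCT2 peak. In other 1 Mb bins between 86 and 100 Mb of chromosome 13, the 32 list medians with at least 5 peaks ran from 1 to 3.72.

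Peaks of MIR17HG ranked lower by fold than by pileup. Its upstream promoter summits stood at percentiles 58.5 (OCT2), 58.8 (CREBBP), 60.4 (OCA-B), 61.0 (MED1) and 73.7 (EP300) of their lists by fold. By pileup they stood at 91.4, 87.2, 92.4, 93.2 and 93.5 in the same order. The part of this background in the high peak count at MIR17HG was not tested. Medians exceeded those of the whole list in 6 of 6 lists at MIR17HG, in 5 at MIR181A1HG (2.02 to 3.89 over the lists), in 5 at MIRLET7BHG (1.73 to 5.92), and in 1 each at MIR22HG (1.95 to 2.48) and MIR155HG (1.37 to 2.58).

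**Figure D4:**
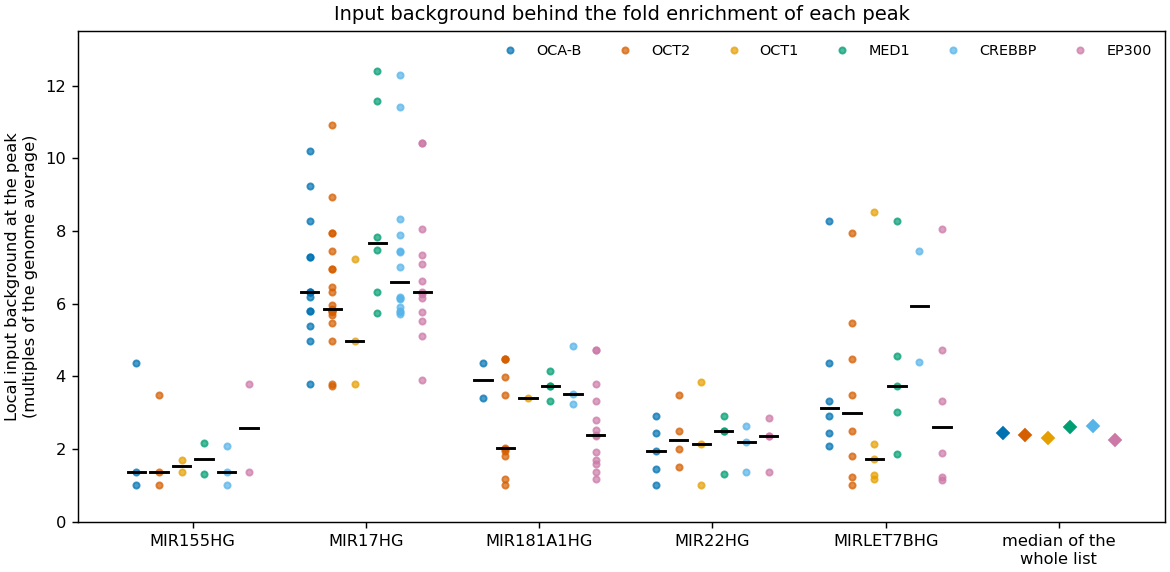
Local input background at each peak (dots) of the 5 host genes in multiples of the genome average, with the median of each list at each gene (black bars) and of the whole list (diamonds). The medians at MIR17HG lie at 4.97 to 7.66 and those of the whole lists at 2.24 to 2.63.

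MIR155HG lies on the plus strand at chr21:25562145-25575168 and had no peak within 1 kb of its start in any list. All 9 peaks inside the gene joined into 1 region of 1477 bp at its far end (chr21:25572991-25574467), which holds the miR-155 hairpin (chr21:25573980-25574044). EP300 had a fold of 30.8 there, at percentile 96.4 of its list, and a pileup of 96. OCT2 had a fold of 24.0 (percentile 94.6), CREBBP 18.8 (85.2), MED1 10.2 (85.2), OCA-B 8.81 (77.1) and OCT1 5.13 (41.0). The summits of these peaks lay 11690 (OCT1) to 11780 bp (OCA-B) from the gene start, and the hairpin begins at 11835 bp. Peaks of all lists but OCT1 covered the hairpin. Weaker OCA-B (4.77), OCT2 (4.11) and CREBBP (3.999) peaks lay some 0.6 to 0.7 kb further upstream.

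Occupancy over a hairpin was uncommon in these lists. A peak lay over 3.45% of the 1911 RefSeq hairpins for OCT1, 2.98% for OCT2, 3.24% for OCA-B, 4.71% for EP300, 2.51% for CREBBP and 2.41% for MED1, over 8.37% for any list and over 0.523% for all 6. Among the 14 hairpins of the 5 host genes, miR-155 was overlapped in 5 lists, 5 of the miR-17-92 hairpins in 1 or 2, the other 8 in none, and 0 in all 6. Both mature arms of miR-155 hold the letters found under the MIR17HG summits and are shown again for that reason, with AUGCUAAU or its reverse complement AUUAGCAU in capitals.
hsa-miR-155-5p: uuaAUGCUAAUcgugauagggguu
hsa-miR-155-3p: cuccuacauAUUAGCAUuaaca
They were the only 2 of 2368 mature microRNAs with this 8-letter match on either strand. Both are arms of 1 hairpin and pair with each other, so they are not separate matches. The letters were also in 3 of 1558 listed hairpin sequences (0.193%), which do not include that of the miR-155 hairpin. This form was searched only after the MIR17HG sequence had been seen. The match in the 5p arm lay 64.5 bp from the OCA-B summit, 71.5 from CREBBP, 92.5 from OCT2, 111.5 from MED1, 130.5 from EP300 and 154.5 from OCT1, which is farther than at MIR17HG for the octamer factors and OCA-B. The remaining 6 peaks of the MIR155HG window lay 45.4 to 46.4 kb downstream of its start, at the 5′ end of MRPL39, a mitochondrial ribosomal protein gene.

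MIR181A1HG lies on the minus strand at chr1:198808003-198937429, with PTPRC, the gene of the CD45 phosphatase, beyond its 3′ end. Occupancy was gathered at the 5′ end, and the hairpins 78 kb into the gene had no peak. At the promoter, OCA-B had a fold of 12.3 and OCT2 of 11.6, with summits 56 and 55 bp upstream of the start. MED1 (6.82), EP300 (5.22) and CREBBP (5.19) had summits 69, 24 and 42 bp upstream, so here the coactivators lay with OCT2 and OCA-B. Second summits of OCT2 (7.99), CREBBP (4.08) and EP300 (3.39) lay 435 to 696 bp downstream. OCT1 had no promoter peak.

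The RefSeq window of MIR181A1HG (chr1:198937380-198937679, minus strand, GRCh38.p14) is printed because the 5 summits fall in it, and it holds neither octamer form.
MIR181A1HG promoter: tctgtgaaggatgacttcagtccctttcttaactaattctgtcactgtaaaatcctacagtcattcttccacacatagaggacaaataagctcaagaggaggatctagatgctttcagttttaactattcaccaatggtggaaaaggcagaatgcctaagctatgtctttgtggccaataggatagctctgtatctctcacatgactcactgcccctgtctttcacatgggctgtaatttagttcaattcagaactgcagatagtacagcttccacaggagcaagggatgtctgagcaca
Its share of G and C was 42.3%, against 73% in the MIR17HG window. A region in all 6 lists lay inside the gene 1.3 to 2.3 kb from the start (chr1:198934481-198936280). There CREBBP had a fold of 13.8, EP300 13.7, OCT2 10.1, MED1 10.1, OCA-B 9.10 and OCT1 3.79, so EP300, CREBBP and MED1 were stronger than at the promoter and OCA-B and OCT2 weaker. The other distal peaks were 9 of EP300, 8 of OCT2 and 2 of MED1, and OCA-B, CREBBP and OCT1 had 0. Of all 9 distal OCT2 peaks, 1 overlapped OCA-B, and 5 of the 8 without OCA-B overlapped EP300.

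MIR22HG lies on the minus strand at chr17:1711504-1716210, head to head with WDR81, whose listed start is at 1716523. The promoter peaks lay between 309 and 454 bp upstream of MIR22HG, which is within 1 kb of both genes, so peaks of the 2 genes cannot be told apart. Their folds were 10.7 for OCA-B, 9.38 for CREBBP, 8.18 for OCT2, 6.58 for MED1, 6.23 for EP300 and 3.75 for OCT1. A second region in all 6 lists had a higher fold in each, with 19.5 for OCT2, 18.9 for CREBBP, 12.8 for OCA-B, 11.4 for MED1, 10.8 for EP300 and 5.75 for OCT1. Its summits lay 1009 to 1055 bp upstream, just beyond the 1 kb limit, and inside WDR81. By pileup this region was not the higher one for OCA-B (39, against 44 at the promoter) or OCT1 (22 against 23). For the other lists it was higher by pileup too. Another region, 7.0 kb upstream and also inside WDR81, held EP300 at a fold of 18.2 and CREBBP at 10.1. OCT2 (7.14), OCA-B (6.56) and MED1 (3.83) had peaks there too. No summit of any list lay inside MIR22HG itself, and no peak overlapped its hairpin.

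MIRLET7BHG lies on the plus strand at chr22:46085997-46113928 and had no peak at its start or inside the gene, so its 4 hairpins were free of peaks. Its distal peaks lay mostly upstream, and 23 of the 32 were within 1 kb of an end of another gene. The region in all 6 lists lay 27.7 kb upstream at the 3′ end of PRR34-AS1, a lncRNA gene (chr22:46057352-46058782). Folds there were 5.54 for OCT1, 23.7 for OCT2, 18.4 for OCA-B, 12.4 for EP300, 18.0 for CREBBP and 8.86 for MED1, and the OCT2 pileup was 247. A site 32.6 kb upstream, within 1 kb of an end of both PRR34 and PRR34-AS1, had OCT1 at a fold of 32.0, OCT2 at 13.9 and OCA-B at 7.92, with summits 32619 to 32626 bp upstream, and no MED1, CREBBP or EP300 peak. That OCT1 peak stood at percentile 98.9 of its list. These 3 summits lay 468 to 475 bp before the start of PRR34-AS1, the gene that RefSeq also gives as a synonym of MIRLET7BHG, and the region in all 6 lists has its summits inside PRR34-AS1. If that gene is counted as part of the host gene, the 3 are promoter peaks and the region lies inside the host.

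When overlapping peaks were merged, the 5 windows held 55 regions. Of these, 7 (12.7%) were in all 6 lists and 25 (45.5%) in a single list, against 9.49% and 47% of the 111561 merged regions of the whole series, so the shares were near the background. Each host gene had 1 distal region in all 6 lists, and MIR17HG and MIR22HG had 1 more at the promoter. At MIR22HG and MIRLET7BHG the distal region lay within 1 kb of an end of another gene, WDR81 and PRR34-AS1.

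Of the 42 distal OCT2 peaks of the host genes, 21 (50%) overlapped OCA-B, against 52.1% of OCT2 peaks beyond 1 kb of any gene start. Of those 21, MED1 was at 14 (66.7%), CREBBP at 16 (76.2%) and EP300 at 14 (66.7%), against 72.1%, 73.6% and 89.5% in the whole series. Of the 21 without OCA-B, MED1 was at 4 (19.0%), CREBBP at 3 (14.3%) and EP300 at 8 (38.1%), against 19.5%, 20.4% and 49.4%. The sets differ, because the 42 include peaks within 1 kb of an end of another gene. With those left out, 15 of 35 (42.9%) overlapped OCA-B. Of these 15, MED1 was at 9 (60%), CREBBP at 12 (80%) and EP300 at 9 (60%). Of the 20 without OCA-B, MED1 was at 4 (20%), CREBBP at 3 (15%) and EP300 at 7 (35%). All 3 distal OCT2 peaks at both MIR155HG and MIR22HG overlapped OCA-B, as did 5 of 8 at MIRLET7BHG, 9 of 19 at MIR17HG and 1 of 9 at MIR181A1HG.

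Other host genes gave the scale. RefSeq listed 64 further genes named MIR...HG with a start, of which 7 (10.9%) had promoter peaks in all 6 lists and 44 (68.8%) in none. Distal OCT2 peaks with OCA-B numbered 9 at MIR17HG, 5 at MIRLET7BHG, 3 each at MIR155HG and MIR22HG and 1 at MIR181A1HG, against a median of 2 at the 64. Among the 64, the highest counts were at MIR194-2HG (23), MIR3681HG (21), MIR4432HG (18), MIR193BHG and MIR4435-2HG (17 each) and MIR142HG (16). Next were MIR200CHG (11), MIR7-3HG and MIR9-2HG (10 each) and MIR4500HG (8, tied with MIR762HG). Windows differ in length, so a count is not a density. Per 100 kb MIR17HG had 8.42, below MIR194-2HG (21.9), MIR142HG (15.7), MIR4432HG (13.6), MIR193BHG (13.1), MIR200CHG (10.9) and MIR7-3HG (9.67). It was above MIR762HG (6.68), MIR4435-2HG (4.26), MIR9-2HG (3.96), MIR3681HG (3.13) and MIR4500HG (2.45). DLEU2, a host gene not named in this form, had 8.64. MIR142HG, host of the blood cell microRNA miR-142, had promoter peaks in all 6 lists, as had DLEU2 (21 distal OCT2 peaks with OCA-B), host of miR-15a and miR-16-1, MIR29B2CHG (7) and MIR3142HG (7), host of miR-146a. MIR23AHG had 0 and no promoter peak.

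Hairpins elsewhere that share a seed with the 12 microRNAs were looked up after the data had been seen. Of 32 such hairpins, 6 had a summit within 1 kb and 0 had all 6 lists, against 18.7% and 3.45% of the 1911 hairpins. miR-93 and miR-106b, which share the seed of miR-17, had 4 lists (OCA-B, OCT2, OCT1 and MED1), let-7i had 4 (OCT2, OCT1, CREBBP and EP300), the let-7a-1 and let-7f-1 hairpins had OCT2 and EP300, and miR-25 had MED1. The relatives of miR-181a had 0 of 5.

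Promoter peaks were also counted at the genes that process microRNAs. Of 14, EP300 was at 9, OCA-B, OCT1 and MED1 at 8 each, and OCT2 and CREBBP at 7 each. The protein-coding shares cover only genes with a listed start, which AGO2 lacks. They were 41.3% for EP300, 43.6% for OCA-B, 42.1% for OCT1, 30.2% for MED1, 36.7% for OCT2 and 26.9% for CREBBP. All 6 lists were present at 4 of the 13 with a listed start, against 18.7% of protein-coding genes: TNRC6B, a partner of Argonaute proteins, the export receptor gene XPO5, TARBP2, a partner of DICER1, and DICER1 itself. By distal OCT2 peaks with OCA-B, the first were TNRC6B (14), XPO5 (10), RAN (9) and TNRC6C (8). AGO1, AGO4 and TNRC6A had no promoter peak, and AGO2, whose start is not listed in the table used, had none at either end.

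The lncRNA genes most like each host gene were found from 12 counts (promoter and distal peaks in each of the 6 lists), by the sum of absolute differences, where 0 would be the same counts. Nearest to MIR155HG were LOC124903059 and TSPAN9-IT1 (difference 1 each) and ANK3-DT (2, 1 of 13 genes tied at that difference). ZNF561-AS1 (2), LOC137778871 (3) and GRPEL2-AS1 (4, 1 of 3 tied) were nearest to MIR22HG. ELN-AS1 (4), LOC124902679 (4) and EDRF1-AS1 (5, 1 of 7 tied) were nearest to MIRLET7BHG. MIR181A1HG had DYM-AS1 (8), and LITATS1 and LOC105372126 (11 each, from 3 genes tied). MIR17HG had ARL14EP-DT (10), ADNP-AS1 (12) and LOC124901752 (15). The differences at MIR17HG were the largest of the 5, over 11376 genes compared. Such sums tend to grow with the number of peaks, and MIR17HG had the most (71).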

How the data were processed

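Each of the 6 ChIP libraries gave 1 deposited peak list. Per the file headers, the authors called narrow peaks with MACS2 2.1.1.20160309 on each library alone against the same input, with a q threshold of 0.05, 51 bp tags and 1 tag kept per position. Per the submitters' processing notes, build hg38 was used, with Bowtie2 2.3.2.2, SAMtools 1.3.1 and CASAVA 1.8.2. Used here are the deposited fold enrichment (a ratio over input), the deposited summit pileup (a signal in fragments) and the deposited −log10 q-value. Redundant rates in the headers ran from 0 (CREBBP, MED1) to 0.2.

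Gene ends came from RefSeq (GRCh38.p14). The start is the gene's outer 5′ end, by the strand in the RefSeq promoter table, which lists 11383 of 18177 lncRNA and 15812 of 19974 protein-coding genes. Inner starts were not counted, and each of the 5 host genes has 1 listed start. Exons and introns were not used here. The local background is (pileup + 1) / fold − 1, divided by tags × fragment length / genome size. Its lowest value was 1.00 in every list, which is the floor the caller sets. Overlap means at least 1 bp. The members were listed by name, and they and the other lists and counts were chosen with earlier results of these data known. Host genes and processing genes are named by counts of distal OCT2 peaks with OCA-B, or as known lymphocyte hosts. Counts were made in Python 3.11.15 with pandas 2.3.3 and were checked on simulated peaks. With 1 library a factor, no test was run.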

Additional observations from a re-analysis of the deposited data

How the results depend on the processing

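Over 10 alternatives, 70 values were recomputed and 53 stayed within 1.5 times, where a value at exactly 1.5 times was counted as within. The number of host promoters per list was recomputed in 5 of them and stayed within 1.5 times with 1 exception. With every list shortened to the length of the OCT1 list, EP300 was at 1 host promoter in place of 3. CREBBP was then at 2 in place of 3, exactly at the limit. With MIRLET7BHG given the start of PRR34-AS1, an alternative chosen after seeing the data, OCA-B and OCT2 were at 4 host promoters and OCT1 at 3. Distal regions in all 6 lists numbered 4 or 5 in the 5 alternatives run for them. The distal counts moved most. In shortened lists they were 8 for OCA-B, OCT2, MED1 and CREBBP and 6 for EP300, against 26, 42, 18, 21 and 34, and 6 OCT2 peaks in place of 21 overlapped OCA-B. With −log10 q of at least 5 they were 15 for OCA-B, 26 for OCT2, 9 for MED1, 13 for CREBBP and 19 for EP300, with 12 OCT2 peaks overlapping OCA-B. With a window of 25 kb they were 16 for OCA-B, 6 for OCT1, 22 for EP300 and 17 for CREBBP. In that window OCT2 had 28 and MED1 12, and 14 OCT2 peaks overlapped OCA-B, each exactly at the limit. Without summits at an end of another gene, OCT1 had 5 in place of 12. The alternatives in which values moved all drop peaks by construction. Shortening cut the OCT2 list from 73829 to 23571 peaks, and its distal peaks here from 42 to 8. The other shortened lists also lost a larger share of these distal peaks than of all their peaks. The part of weak peaks in these moves was not tested. No paired analysis was possible because each factor has 1 library. Depth limits weak peaks, so an empty promoter means that no peak passed the caller's threshold there.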
